A study of Mus musculus with 11 samples.

Results

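The receptor tyrosine kinase genes Kit, Flt3, Csf1r and Tek were followed through 6 mouse cell populations, from blood stem cells to early thymocytes. They were chosen by name: each is represented by the probe set annotated to its symbol alone, with the highest mean where a gene had several, and they are 4 of the 19938 genes measured in this way. Each of the 4 had 1 such probe set. All cells came from C57BL/6J mice. The marrow gave haematopoietic stem cells (HSC), progenitors that are multipotent but lymphoid-primed (LMPP) and the common progenitors of lymphoid cells (CLP). Early thymic precursors (ETP) and the double negative stages DN2 and DN3, which follow each other in the thymus, carry the tissue label thymus, although their free-text descriptions name marrow. There were 2 arrays for every population but DN2, which had 1. No treatment or altered allele is named in the labels, and no source used here gives the age of the mice, the number of mice behind an array or the sorting gates. Nothing states that replicates came from separate mice or sorts, so the p-values measure the spread between these arrays, which may be technical. KIT and FLT3 proteins are widely used to sort such cells. Part of the differences in Kit and Flt3 described here may therefore have been set by the gates.

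These receptors sit in the cell membrane, bind a growth factor outside the cell, pair up and phosphorylate each other and downstream proteins. KIT binds stem cell factor, the product of Kitl, and sustains stem cells, mast cells and the earliest thymocytes. FLT3 binds the product of Flt3l and supports lymphoid and dendritic cell progenitors. CSF1R, the receptor for the products of Csf1 and Il34, is needed by monocytes and macrophages. TEK, also called TIE2, binds angiopoietins and is found on endothelial cells and on stem cells. KIT, FLT3 and CSF1R belong with the platelet-derived growth factor receptors to class III of the family, and TEK belongs with TIE1.

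In the RefSeq annotation of GRCm38.p6, Kit lies on chromosome 5 between Pdgfra and Kdr, which also encode receptor kinases, and Flt3 lies elsewhere on chromosome 5, between Urad and Pan3. Tek lies on chromosome 4 between Lrrc19 and Eqtn. The 250 bases upstream of the annotated start are shown for Kit and Flt3, whose transcripts fell at different steps. Both are written 5′ to 3′ on the gene's own strand, from RefSeq, at chr5:75574737-75574986 on the plus strand for Kit and chr5:147400490-147400739 on the minus strand for Flt3. The table holds 2 start sites for Kit and 1 for Flt3. Capitals mark GGAAG, read for ETS factors, or its reverse complement CTTCC. The shorter run GGAA was not marked, and the Flt3 window also holds it in lower case.
Kit: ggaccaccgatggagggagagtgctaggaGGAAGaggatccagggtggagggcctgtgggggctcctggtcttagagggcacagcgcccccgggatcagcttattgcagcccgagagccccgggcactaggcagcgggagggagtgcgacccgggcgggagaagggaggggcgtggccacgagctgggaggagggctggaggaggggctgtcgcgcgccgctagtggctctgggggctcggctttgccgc
Flt3: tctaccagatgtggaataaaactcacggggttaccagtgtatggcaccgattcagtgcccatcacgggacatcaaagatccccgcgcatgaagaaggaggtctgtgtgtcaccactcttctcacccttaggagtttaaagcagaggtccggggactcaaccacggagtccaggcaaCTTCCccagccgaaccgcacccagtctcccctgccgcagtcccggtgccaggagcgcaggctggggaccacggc
The windows had a GC content of 70.8% for Kit and 59.2% for Flt3. Each held 1 match to GGAAG on either strand, which 64.1% of the 32851 RefSeq windows of this length also held. The match began 221 bases before the start in Kit and 74 bases before it, on the opposite strand, in Flt3. Neither window held GATAA, read on both strands for GATA factors and present in 22.6% of windows, or TGTGGT, read on both strands for RUNX factors and present in 14%. A match is a description of letters and not a site.

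Array medians over all probe sets lay between 6.01 and 6.12 on the log2 scale, and replicates correlated at 0.9882 to 0.9957 across genes. Marker genes were read against the labels. Slamf1, a stem cell surface gene, was at 7.54 ± 0.18 (SD, n = 2) in HSC and at most 5.68 on any other array. The stem cell genes Hlf, Mecom and Procr overlapped between HSC and LMPP. Hlf was at 8.91 and 8.32 in HSC and 8.55 and 9.34 in LMPP, and Mecom at 7.02 and 7.09 and at 6.9 and 7.15. Procr was at 5.72 and 6.52 in HSC and 5.38 and 6.01 in LMPP. Ebf1, a B lineage factor, was at 9.27 ± 0.074 in CLP and at most 5.43 elsewhere. Dntt, a gene of lymphoid priming, went from 8.32 and 7.88 in HSC to 12 and 11.98 in LMPP, and was at 12.47 and 12.53 in CLP. Hes1, a Notch target, was at 8.19 and 8.27 in ETP against at most 6.72 in marrow cells. It was at like levels in DN2 (8.24) and DN3 (8.44 and 8.36), so it does not tell ETP from these. Cd44, another ETP marker, did not stand out in ETP (8.22 and 8.52) from LMPP (8.41 and 8.61) or CLP (8.46 and 8.57). Cd3g was at 6.68 and 8.45 in ETP, at most 4.97 in marrow cells and 11.21 in DN2. Il2ra, which marks DN2 and DN3, was at 11.40 in DN2 and 11.27 ± 0.049 in DN3 against at most 7.68 elsewhere, and Ptcra, the pre-T cell receptor chain, at 7.88 ± 0.17 in DN3 and at most 6.57 elsewhere. The HSC replicates stood furthest apart, with 146 genes more than 1 log2 unit apart against 10 to 88 in the other pairs, and replicate 1 was high for a group of endothelial genes that is described with Tek. Values are log2 intensities, in which 1 unit is a doubling. A gene was called where its adjusted p was under 0.05 in limma, with Benjamini-Hochberg adjustment over all 19938 genes, and the SD is over the 2 arrays of a population. Levels are compared within a gene only. In bulk RNA, fewer cells of a type and less RNA per cell cannot be told apart.

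All 4 genes were called in the F test over the 6 populations, as were 12.2% of all genes (Flt3 adjusted p = 3.95e-08, Kit 0.000114, Tek 0.000623, Csf1r 0.00154). Their patterns differed. Flt3 was highest in LMPP and CLP, Kit was high in HSC, LMPP, ETP and DN2 and lower in CLP and DN3, Tek was high in HSC alone, and Csf1r moved within a narrow range with its highest level in ETP. Over the 11 arrays the closest pair was Flt3 and Csf1r, with a Pearson r of 0.702, and the other 5 pairs lay between -0.211 and 0.508. These correlations are descriptions over arrays that include replicates.

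**Figure D1:**
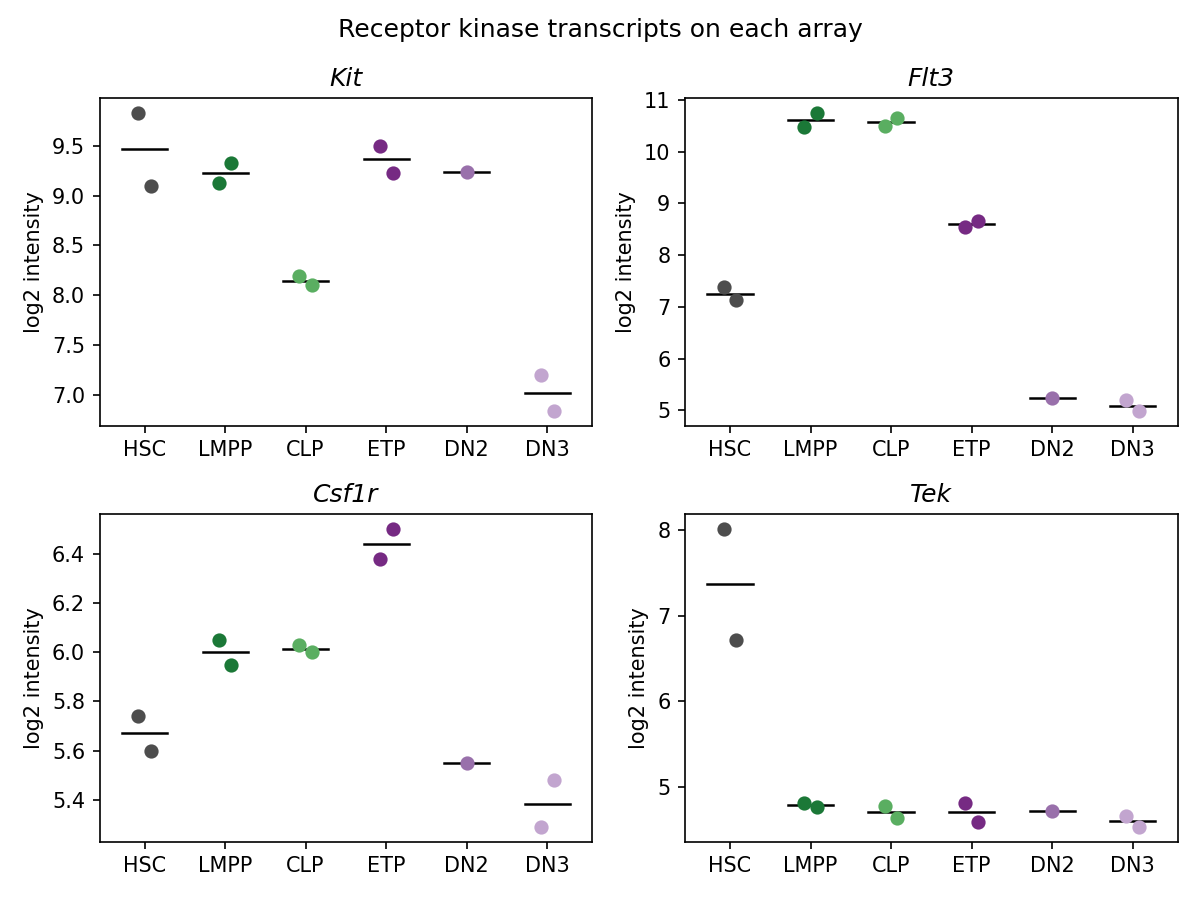
Log2 intensity of Kit, Flt3, Csf1r and Tek on each of the 11 arrays (points), with the population mean as a line, by population on the horizontal axis. Flt3 peaks in LMPP and CLP, Kit is lowest in DN3, and the HSC arrays carry Tek at 8.01 and 6.72 while all other arrays are at or below 4.81.

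Flt3 was at 10.48 and 10.75 in LMPP, 10.50 and 10.66 in CLP, 8.55 and 8.66 in ETP, 7.38 and 7.13 in HSC, 5.23 in DN2 and 5.19 and 4.99 in DN3. The means of LMPP and DN3 differed by 5.52 log2 units, or 45.9-fold. The LMPP and CLP arrays overlapped, and no other neighbours in the order overlapped. Flt3 rose from HSC to LMPP by 3.36 (SE 0.14; 95% interval 3.04 to 3.68; 10.3-fold; adjusted p = 1.29e-06), a comparison in which 2.94% of genes were called.

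From LMPP to CLP the Flt3 difference was -0.03 (95% interval -0.35 to 0.29; adjusted p = 0.991). ETP minus LMPP was -2.01 (4.02-fold lower; adjusted p = 4.04e-05; 2.31% of genes called) and ETP minus CLP was -1.98 (3.94-fold lower; 3.45e-05; 2.52% called). ETP still carried more Flt3 than HSC, by 1.35 (0.000272; 5.13% of genes called).
From ETP to DN2 Flt3 changed by a further -3.38 (SE 0.18; interval -3.77 to -2.99; 10.4-fold lower; adjusted p = 1.28e-05; 0.998% of genes called). DN2 was also below HSC, with a difference of -2.02 (8.7e-05; 3.99% called). The single DN2 array takes its error from the spread of the replicated populations. DN3 differed from DN2 by -0.14 (interval -0.53 to 0.25), which was not called. Flt3 in both lay below every array median, and whether such dim levels are above background was not measured. A further fall could therefore be hidden. Flt3 in DN3 was 11.4-fold lower than in ETP (adjusted p = 1.94e-07; 6.57% of genes called). All of these Flt3 calls were kept in every alternative fit and without each array that left the comparison in place.

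Kit was at 9.83 and 9.10 in HSC, 9.13 and 9.33 in LMPP, 8.19 and 8.10 in CLP, 9.50 and 9.23 in ETP, 9.24 in DN2 and 7.20 and 6.84 in DN3. HSC, ETP, DN2 and LMPP overlapped, and their neighbours in the order, at most 0.13 apart, were not called (adjusted p 0.934 to 1). The range between the highest and lowest means was 2.45, or 5.45-fold. The HSC replicates were 0.73 apart, which 2.7% of genes exceeded.

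CLP lay between the high populations and DN3, although DN2 minus CLP, at 1.09, was not called (adjusted p = 0.0637). Kit fell by 1.08 from LMPP to CLP (SE 0.22; 95% interval -1.57 to -0.6; 2.12-fold; adjusted p = 0.0452; 1.14% of genes called) and was 1.22 higher in ETP than in CLP (2.33-fold; 0.0143; 2.52% of genes called). The first call was lost without either LMPP, CLP, ETP or DN3 array (adjusted p = 0.133 and 0.269, 0.18 and 0.198, 0.0754 for both ETP arrays, and 0.0711 for both DN3 arrays), and the second without either CLP array (0.0705 and 0.0878) or either ETP array (0.124 and 0.0591). Without 1 array the differences were -1.18 to -0.99 for CLP minus LMPP and 1.09 to 1.35 for ETP minus CLP.

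The larger fall in Kit came at DN3. DN3 minus DN2 was -2.22 (SE 0.27; interval -2.81 to -1.63; 4.66-fold lower; adjusted p = 0.00144; 1.8% of genes called) and DN3 minus ETP was -2.35 (5.08-fold lower; 6.1e-05). DN3 minus CLP was -1.13 for Kit (0.00832; 8.69% of genes called), a call lost without CLP replicate 1 (0.0606) or DN3 replicate 2 (0.103). Flt3 thus dropped between ETP and DN2 and Kit between DN2 and DN3, in comparisons of the same arrays that were not tested against each other. The 2 genes shared a Pearson r of 0.354.

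Mast cells also carry Kit, and Cpa3, a mast cell protease gene, was at 10.11 ± 0.24 in HSC, 9.99 ± 0.32 in ETP, 11.06 in DN2 and 8.89 ± 0.086 in DN3. It was at 5.58 and 4.82 in CLP, where Kit was also low, and at 5.08 and 4.92 in LMPP, where Kit was high. Mcpt8, a basophil protease gene, was ordered more like Kit, at 7.40 and 7.79 in HSC, 6.65 and 7.05 in LMPP, 5.10 and 6.21 in CLP, 6.80 and 7.32 in ETP, 6.72 in DN2 and 4.94 and 4.95 in DN3. Fcer1a, a defining mast cell receptor gene, stayed between 3.56 and 4.04 on every array. Of the 8 mast cell and basophil markers measured, 4 were called in the F test (Cpa3, Mcpt8, Ms4a2 and Hdc), beside 12.2% of all genes. The mean level of the 8 markers ran from 4.85 to 6.04 across arrays. Their part in the Kit differences was not tested.

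**Figure D2:**
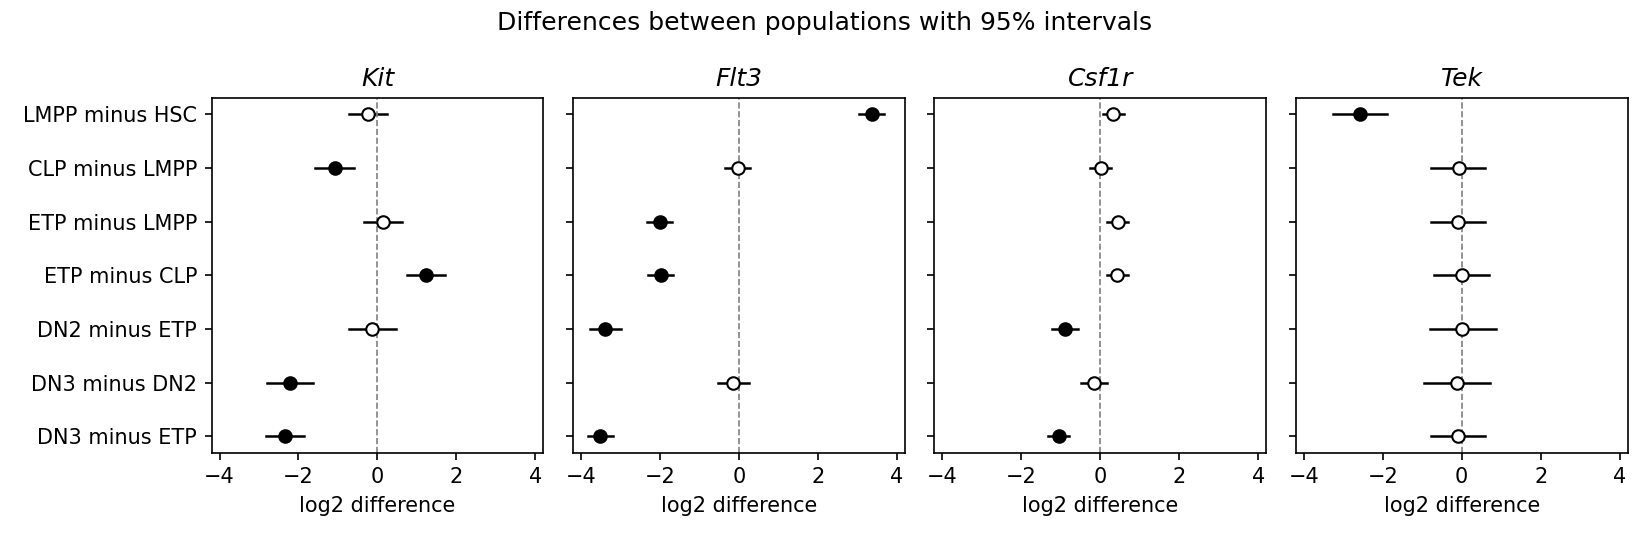
Differences of log2 means between populations (points) with 95% intervals (bars) for each member and the 7 comparisons; filled points were called at adjusted p under 0.05, open points were not, and the dashed line is no difference. Flt3 falls at DN2 minus ETP and Kit at DN3 minus DN2, whereas Tek departs from 0 at LMPP minus HSC alone among the 7.

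Csf1r was at 5.74 and 5.60 in HSC, 6.05 and 5.95 in LMPP, 6.03 and 6.00 in CLP, 6.38 and 6.50 in ETP, 5.55 in DN2 and 5.29 and 5.48 in DN3. Its means spanned 1.05 log2 units, or 2.08-fold. Outside ETP no array was above 6.05, which is near the array medians. Whether such dim levels are above background was not measured. The ETP arrays lay above all others, yet ETP exceeded CLP by 0.43 (95% interval 0.16 to 0.69; adjusted p = 0.126) and LMPP by 0.44 (0.18 to 0.71; 0.103), and neither difference was called.
Csf1r fell from ETP to DN2 by 0.89 (SE 0.15; 1.85-fold; 0.0171), a call lost without either ETP array (0.0558 and 0.106), and from ETP to DN3 by 1.05 (2.08-fold; 0.000266). No neighbours in the order of the 6 means were called.

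Macrophages and monocytes are the cells best known for Csf1r. The mean level of 10 of their markers was 5.66 and 5.87 in ETP, against 5.45 to 6.00 over all arrays. In the F test 2 of the 10, Ccr2 and Lyz2, were called, a share near the 12.2% of all genes. The defining markers Adgre1 (4.17 to 4.55) and C1qa (5.73 to 6.15) were at like levels on all arrays. Ccr2, a monocyte chemokine receptor, was at 6.55 and 7.26 in ETP, and at most 6.29 elsewhere. Lyz2 was instead highest in HSC, at 8.8 and 9.17, against 7.88 and 8.59 in ETP and 6.76 and 6.86 in DN3. Of the 6 conventional dendritic cell markers, 3 were called in the F test (H2-Aa, Cd74 and Itgax), beside 12.2% of all genes. The mean of the 6 was 5.95 and 6.04 in ETP against 4.90 to 5.31 elsewhere. H2-Aa, an MHC class II gene, was at 9.14 and 9.59 in ETP and at most 6.25 elsewhere, and Cd74, its invariant chain, at 6.63 and 6.72 and at most 5.55 elsewhere. The other 4 did not stand out in ETP: Itgax was at 5.99 and 5.95 there and up to 6.05 in CLP, Zbtb46 lay between 5.30 and 5.70 on all arrays, Clec9a between 3.89 and 4.73 and Xcr1 between 3.99 and 4.56. Their part in the Csf1r level of ETP was not tested.
Flt3 is also carried by dendritic cells. Of 4 plasmacytoid dendritic markers 3 were called in the F test (Siglech, Tcf4 and Ccr9), beside 12.2% of all genes. The mean of the 4 was 8.24 and 8.46 in CLP and 6.85 to 7.72 elsewhere. Tcf4, a factor of these cells, was high with Flt3, at 9.42 to 9.59 in LMPP and CLP and at most 8.77 elsewhere. Ccr9, a homing receptor, rose from HSC to LMPP by 1.59 (adjusted p = 0.00214) but was highest in DN3, at 7.40 and 7.84. Siglech was at 7.75 and 8.36 in CLP and at 5.85 on both LMPP arrays, where Flt3 was at 10.48 and 10.75. Their part in the Flt3 levels was not tested.

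Tek was at 8.01 and 6.72 in HSC, and at 4.81 and 4.76 in LMPP, 4.77 and 4.63 in CLP, 4.81 and 4.59 in ETP, 4.72 in DN2 and 4.66 and 4.53 in DN3. Both HSC arrays were above all others, but they differed from each other by 1.29, a gap exceeded by 49 of the 19938 genes (0.246%). The HSC mean was 7.37 ± 0.91 (SD, n = 2). LMPP minus HSC was -2.58 (SE 0.31; 95% interval -3.27 to -1.9; 5.99-fold lower; adjusted p = 0.00124; 2.94% of genes called), and the 6 other steps lay between -0.13 and 0.02 with adjusted p of 0.949 or more. The SE pools HSC with populations in which Tek had an SD of 0.031 to 0.16, so it understates the spread of HSC. Without HSC replicate 1 the LMPP minus HSC difference was -1.94, and without HSC replicate 2 it was -3.23. In a fit of HSC and LMPP alone it was not called (adjusted p = 0.0608).

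HSC replicate 1 was also high for some endothelial genes. Of 16 such genes, listed after the data were seen, 8 exceeded all 9 arrays of the other populations by more than 1 log2 unit in HSC replicate 1, and 1, Fabp4, did so in replicate 2. Fabp4, a fatty acid carrier, was at 9 and 5.89 on the HSC arrays and at most 4.61 elsewhere, and Sparc, a matrix protein, was at 8.73 and 6.28 and at most 5.84 elsewhere. Stab2, a scavenger receptor of sinusoids, was at 7.58 and 6.25, and Cdh5, the endothelial cadherin, at 6.92 and 5.48. The other 8 of the 16 did not pass the margin in replicate 1. Gpihbp1 was 0.33 above the highest other array there. Stab1, Lyve1, Ramp2, Plvap, Ptprb, Adgrl4 and Sparcl1 were between -0.58 and -0.01 from it. The share of all genes that pass the margin was not counted. The 16 include 8 of the 49 genes further apart than Tek in HSC.
Of 9 common endothelial markers, 1, Cdh5, which is in both lists, passed that margin in replicate 1 and 0 in replicate 2. Their mean level was 6.65 and 6.42 in HSC against 5.79 to 6.45 elsewhere. Gata1, an erythroid and megakaryocyte factor, was also uneven, at 7.72 and 6.41 and at most 6.25 elsewhere. The mean of 4 megakaryocyte markers was 7.96 and 7.81 in HSC against 5.66 to 6.11 elsewhere. In the F test 3 of the 4 were called, beside 12.2% of all genes. Pf4, a platelet chemokine gene among them, was even between the HSC arrays, at 10.95 and 10.98, and at most 5.82 elsewhere. In replicate 2 Tek was 1.91 above the highest other array. Of the 16 genes listed after the data were seen, 5 were above all other arrays in replicate 2. They ranged from Stab2, by 0.1, to Fabp4, by 1.28. The rest were not, such as Cdh5, which was 0.24 below the highest other array. The part of other cells in the Tek level of HSC was not tested.

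**Figure D3:**
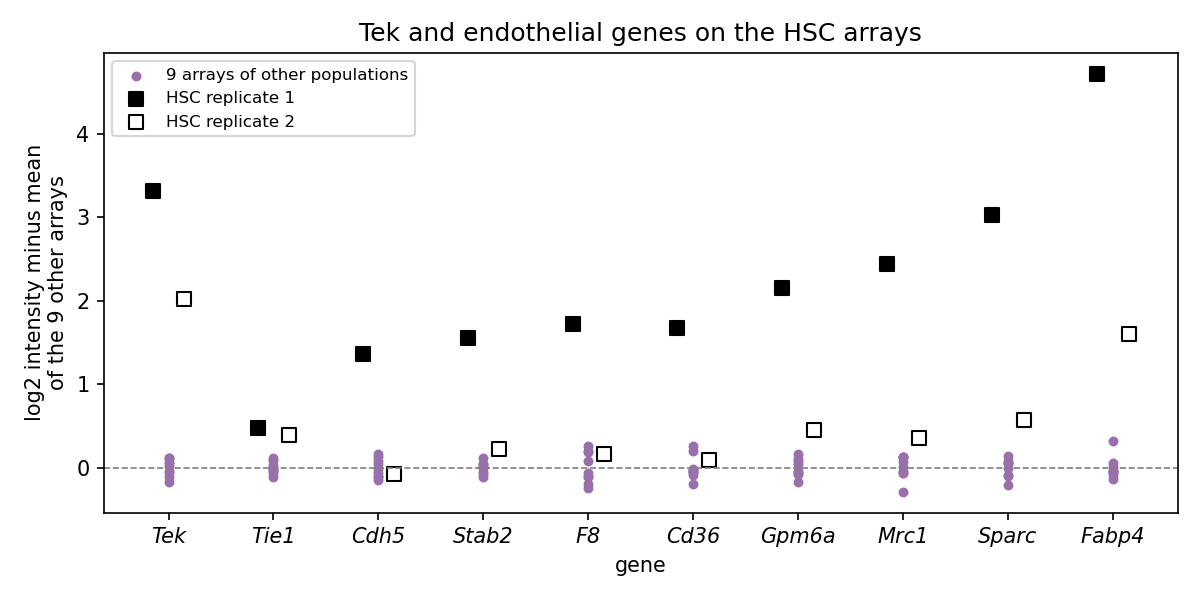
Log2 intensity of Tek and chosen endothelial genes minus the mean of the 9 arrays from the other populations, with HSC replicate 1 (filled squares), HSC replicate 2 (open squares) and the 9 other arrays (dots). Besides Tek and Tie1, only the 8 of 16 added genes that passed the margin of 1 log2 unit in replicate 1 are shown. Listed genes left out include Pecam1 and Egfl7, which in replicate 1 were 0.82 and 1.26 below the highest other array. Replicate 1 stands higher than replicate 2 for Tek (8.01 and 6.72) and Fabp4 (9 and 5.89).

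Among the 10 receptors of the close family (class III, Tie and VEGF receptors), 5 were called in the F test, beside 12.2% of all genes. They are the 4 members and 1 of the 6 others, a share of the others near that of all genes. That gene was Pdgfrb, a receptor for platelet-derived growth factor, next to Csf1r in the genome. It was at 7.82 and 7.42 in ETP, 7.11 in DN2, 6.54 and 6.49 in DN3 and between 6.21 and 6.51 on the marrow arrays. It was higher in ETP than in LMPP by 1.17 (adjusted p = 0.00143) and than in CLP by 1.36 (0.000412), and lower in DN3 than in ETP by 1.11 (0.000631). ETP was thus the highest population for both Pdgfrb and Csf1r.
The others were not called. Pdgfra, next to Kit, lay between 4.89 and 5.27, and Kdr, on its other side, between 4.59 and 5.52. Flt1 (4.75 to 5.16) and Flt4 (4.65 to 5.33), both VEGF receptors, and Tie1 (5.81 to 6.39) were also uncalled. Tie1 was highest on the HSC arrays, at 6.39 and 6.31 (F test adjusted p = 0.0672).

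Of the 14 ligands, 5 were called: Angpt1, Pdgfc, Pdgfd, Vegfa and Vegfc, beside 12.2% of all genes. The count was 2, near that share, without ETP replicate 2 or either DN3 array and 3 without either CLP array or ETP replicate 1. The ligands of the members' own receptors were not among them apart from Angpt1. Kitl lay between 3.57 and 3.84, Flt3l between 5.40 and 6.32 and Csf1 between 5.31 and 5.80, and Il34 (5.45 to 6.15), Angpt2 (6.06 to 7.01) and Angpt4 (5.41 to 5.67) were not called either. Pdgfa (6.32 to 6.74), Pdgfb (5.69 to 5.94) and Vegfb (7.22 to 7.5) were likewise uncalled.
Vegfa, the vascular growth factor, was 0.72 higher in DN3 than in ETP (adjusted p = 0.00308), and Vegfc was at 5.82 to 6.35 in the marrow populations and 5.07 to 5.48 in the thymic ones. Pdgfc was highest in CLP, at 5.48 and 5.5. Pdgfd was at 5.64 and 4.78 in HSC and at most 4.54 elsewhere.

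Angpt1, the TEK agonist angiopoietin 1, was at 11.12 and 11.16 in HSC, 10.40 and 10.36 in LMPP, 9.38 and 9.15 in CLP, 11.21 and 11.36 in ETP, 11 in DN2 and 8.79 and 8.98 in DN3 (F test adjusted p = 1.45e-06). Like Kit it was low in CLP and DN3. It fell from LMPP to CLP by 1.11 (0.00158), was higher in ETP than in CLP by 2.02 (1.31e-05), and fell from DN2 to DN3 by 2.12 (4.2e-05). It also fell from HSC to LMPP by 0.76 (0.00849), a call lost without either LMPP array (adjusted p up to 0.0635). In fits of the 2 populations alone the calls from HSC to LMPP (0.073) and from LMPP to CLP (0.0516) were lost. Its Pearson r with Kit was 0.909 and Spearman's rho 0.727 over the 11 arrays, rank 18 among the 1568 genes compared; the pair was picked out after its values were seen. Thus the ligand transcript was high in ETP and DN2, where Tek, the receptor transcript, was at 4.59 to 4.81.

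**Figure D4:**
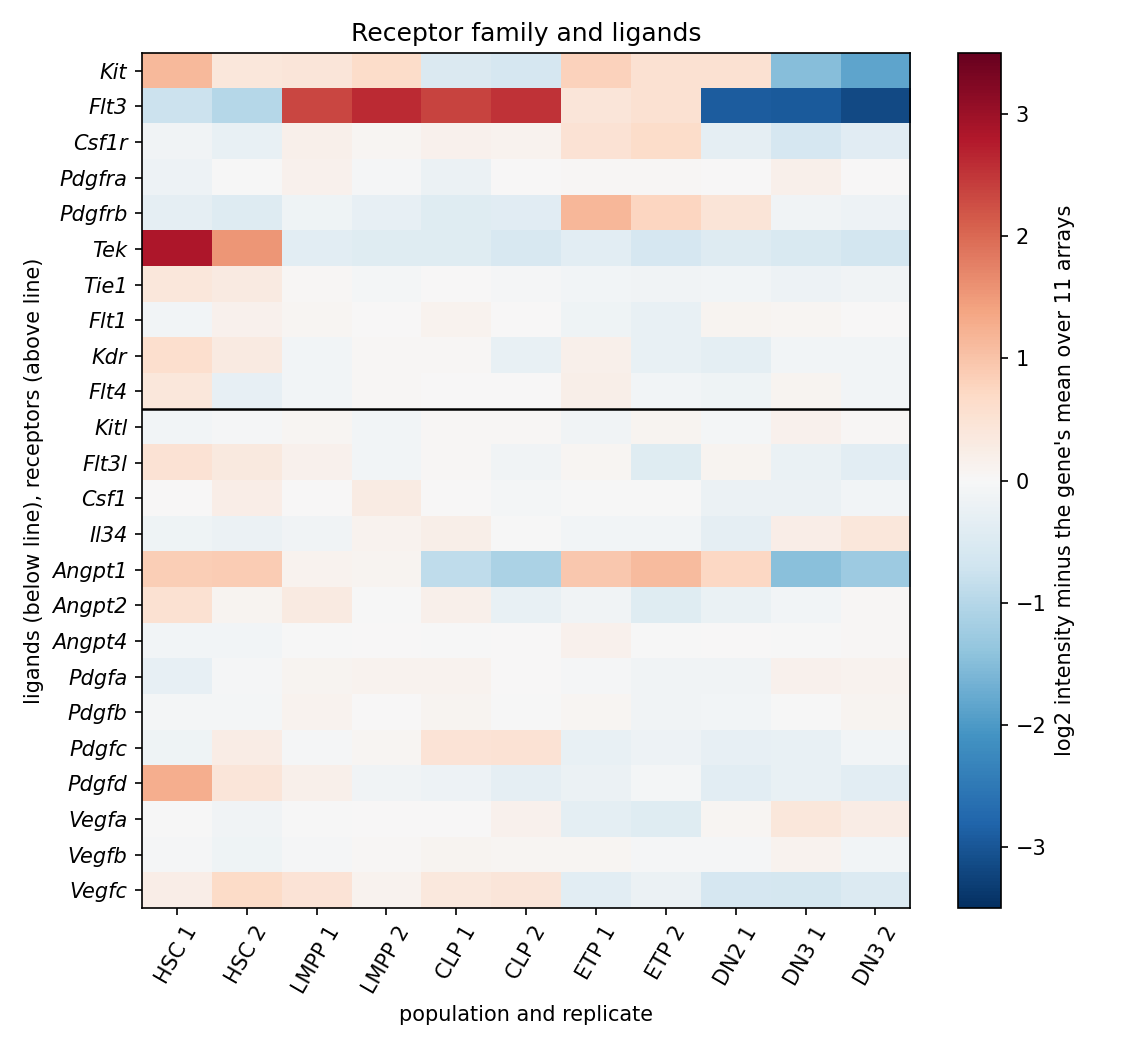
Log2 intensity minus each gene's mean over the 11 arrays (colour) for the close receptor family (above the line) and the ligands (below the line), by population and replicate. Flt3, Tek, Kit and Angpt1 vary most between populations, whereas Kitl, Flt4 and Vegfb stay near their means.

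**Figure D5:**
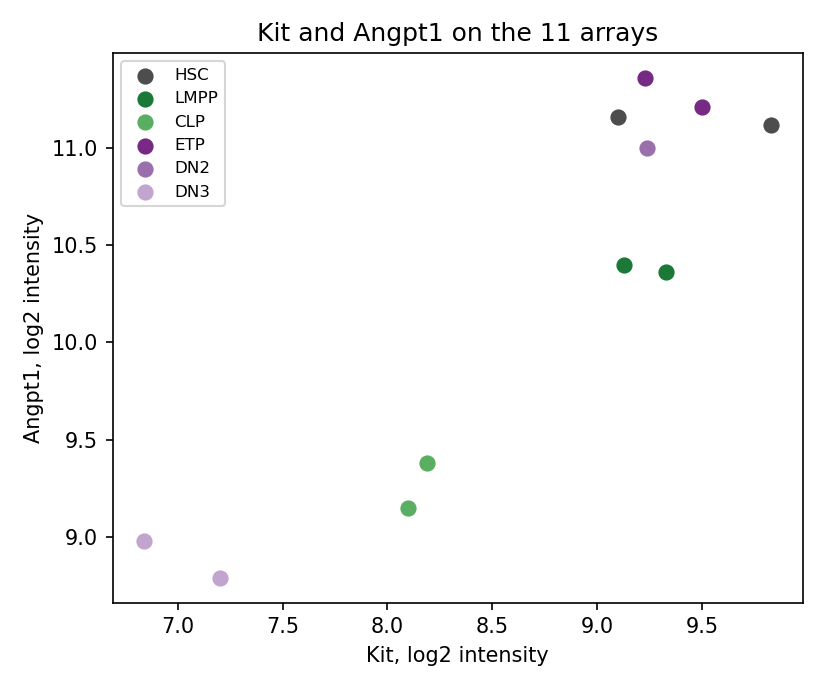
Kit against Angpt1, both as log2 intensity, with 1 point per array coloured by population. DN3 arrays lie lowest on both axes and CLP next, and the other 4 populations lie together at high Kit.

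The pathway beyond these genes was described with lists, by counts beside the 12.2% of all genes called in the F test. Of 43 other receptor tyrosine kinases measured, 4 were called, a share below that of all genes: Epha7, Igf1r, Ryk and Epha2. The count was 2 without either CLP array. Epha7, an ephrin receptor, fell from 6.69 ± 0.09 in LMPP to 5.58 in CLP and 4.99 ± 0.047 in ETP (F test adjusted p = 4.88e-06). Ryk, a Wnt co-receptor, was at 5.90 and 5.51 in HSC and at most 4.76 elsewhere (0.00127).

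Of 43 signalling genes acting below KIT and FLT3, 13 were called in the F test, 7 without DN3 replicate 1 and 8 without DN3 replicate 2. From ETP to DN3, 1 was higher and 7 were lower, beside 2.68% and 3.89% of all genes, and the total of 8 became 3 without ETP replicate 1, ETP replicate 2 or DN3 replicate 1, and 4 without DN3 replicate 2. Without either HSC array it was 11, with 3 higher and 8 lower. Btk, a kinase activated after receptor engagement, was at 8.52 to 9.12 in every population but DN3, where it was at 5.74 and 5.54; it fell from DN2 by 2.88 (adjusted p = 1.22e-05). Dusp6, a phosphatase that limits ERK, fell from ETP to DN3 by 2.00 (7.06e-05). Cblb, a ubiquitin ligase that dampens receptor signals, was the gene that rose, by 1.57 (0.00115), and its HSC arrays were at 8.46 and 7.61.
Inpp5d, which encodes the lipid phosphatase SHIP1, was at 8.73 and 9.44 in CLP and 7.11 and 7.05 in DN3, and Plcg2, a phospholipase, at 7.69 and 8.65 and at 6.36 and 6.38. Their falls from ETP to DN3 (1.12, adjusted p = 0.0312, and 1.3, 0.0144) were lost without either ETP or either DN3 array (adjusted p up to 0.189 and 0.098). The median of the 43 differences from ETP to DN3 was -0.0455, and over all genes -0.00287.

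Of 22 transcription factors known at these receptor genes, 18 were called in the F test. From ETP to DN3, 2 rose (Gata3 and Runx1; 0 without ETP replicate 2 or DN3 replicate 2) and 10 fell (at least 9 without any 1 array), with a median of -0.489; the list was chosen with results of these data known and is not independent evidence of a direction. Meis1, a stem cell homeobox factor, went from 10.39 and 9.79 in HSC to 4.82 and 4.81 in DN3. Hhex stayed between 9.59 and 10.51 until DN2 and was at 6.06 and 5.90 in DN3, a fall of 3.67 from DN2 (adjusted p = 6.04e-06). Mef2c (10.33 and 10.30 in CLP, 5.90 and 5.63 in DN3) and Lmo2 (9.34 and 9.58 in LMPP, 5.87 and 5.22 in DN3) were both lower in DN2 than in ETP, with differences of -1.75 (0.000826) and -1.93 (0.00362).
Gata3, a T lineage factor, went the other way, from 5.04 and 5.41 in CLP to 7.82 in DN2 and 7.85 and 8.19 in DN3. Its rise from ETP to DN3, 1.07, was lost without ETP replicate 2 or DN3 replicate 2 (adjusted p up to 0.136).

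The genes most like each member were ranked by Pearson r over the 11 arrays among 1568 genes whose population means span at least 1 log2 unit. For Kit they were Adgrg1 (0.967), Ifitm1 (0.962), Rab31 (0.958), Mettl7a1 (0.957) and Lst1 (0.948). Ifitm1 was at 11.40 and 11.59 in HSC, 9.81 and 9.92 in CLP and 7.44 and 7.54 in DN3. For Flt3 they were Egfl7 (0.99), Il12a (0.98), Emb (0.976), Fmnl2 (0.972) and Arhgef3 (0.969), and Il12a ran from 9.62 and 9.47 in CLP to 5.55 and 5.66 in DN3.
Csf1r was followed most closely by Gramd3 (0.935), Pde7b (0.917), Havcr2 (0.916), Fcrl1 (0.915) and Sgpl1 (0.911), each with its highest mean in ETP. Tek was followed by Mfsd2b (0.993), Icam4 (0.989), P3h2 (0.988), Rhag (0.987) and Gp5 (0.985). All 5 of these were higher in HSC replicate 1 than in replicate 2, as Tek was. Genes were picked by correlation over single arrays, so this likeness comes largely from the choice. The same holds for the ETP peak of the genes picked for Csf1r. Gp5, a platelet glycoprotein gene, was at 8.78 and 7.40 on the HSC arrays and at most 6.30 elsewhere. These correlations describe the same 11 arrays, replicates included.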

How the data were processed

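Total RNA was extracted with Trizol, labelled with a kit for whole transcripts and put on 1 Affymetrix array per sample, per the labels' protocols. The authors deposited log2 intensities made with RMA, per the submitters' processing notes; the sources used here give no version of it, chip definition or genome build. Of 35556 probe sets, 21789 had 1 gene symbol, 1621 several and 12146 none; those with 1 symbol gave 19938 genes, the probe set with the highest mean standing for a gene. Depth does not apply to arrays; their number sets the precision. One limma fit (3.58.1, R 4.3.3) of 6 group means over 11 arrays, with 5 residual degrees of freedom, gave the F test and two-sided contrasts, adjusted by Benjamini-Hochberg over all genes and tested on simulated data. RefSeq (GRCm38.p6) served for names, neighbours and upstream sequence. Python 3.11.15, pandas 2.3.3 and matplotlib 3.10.9 made the tables and figures.

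The members and gene lists were chosen with earlier results of these data known. The genes named are the members, the receptor and ligand lists, up to 5 called genes of each other list with the largest range of means, and the 5 genes most correlated with each member, predicted genes left out; markers and the added endothelial genes, chosen after their values were seen, are named besides. Alternatives were a filter on dim genes, repeated quantile normalization, median centring, averaging the probe sets of a gene, an intensity trend, array weights, a replicate block, a threshold of 0.01, fits of 2 populations alone and leaving out each array.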

Additional observations from a re-analysis of the deposited data

How the results depend on the processing

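Of 825 values under alternatives, 767 were rated the same, and the cause of the rest was not tested. For differences and F tests, the same means that direction and side of the threshold were kept. For counts over lists, it means only that the count changed little. Of the 12 called comparisons among 28 for the members, 8 kept their call in every setting and 0 reversed. The call for Kit from LMPP to CLP was lost with arrays centred on their medians (-1.05, adjusted p = 0.0951) and with the 2 populations alone (-1.08, 0.0516), as was that for Tek from HSC to LMPP with the 2 populations alone (-2.58, 0.0608). Directions turned only in uncalled differences. These included Kit LMPP minus HSC, at -0.24 in the main fit and -0.6 to 0.13 without 1 array. Centring gave 0 for Flt3 CLP minus LMPP, 0 for Tek DN2 minus LMPP and 0.01 for Tek ETP minus CLP. Repeated quantile normalization gave -0.11 for Kit DN2 minus LMPP, 0.04 for Tek DN2 minus LMPP and 0.03 for Tek ETP minus CLP.

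The main fit did not pair arrays by replicate number. Of 10 pairs of populations, 4 had replicate deviations correlated over 0.1 (-0.258 to 0.283). Pairs with HSC lay between -0.258 and -0.0876, and pairs without HSC between 0.0703 and 0.283. Whether replicates share a batch is not stated in the labels and was not tested. A replicate block gave 2352 genes called in the F test against 2430, gave -0.11 for Kit DN2 minus LMPP, -0.16 for Tek DN2 minus CLP, -0.16 for Tek DN2 minus ETP and 0.06 for Tek DN3 minus DN2, and changed no call of a member.

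Leaving out 1 array at a time gave these ranges. For Kit they were -1.18 to -0.99 (CLP minus LMPP), 1.09 to 1.35 (ETP minus CLP), -1.31 to -0.95 (DN3 minus CLP), -0.6 to 0.13 (LMPP minus HSC), -0.26 to 0.01 (DN2 minus ETP), -0.09 to 0.11 (DN2 minus LMPP) and -0.46 to 0.26 (ETP minus HSC). For Flt3 CLP minus LMPP the range was -0.16 to 0.11. Csf1r gave -0.95 to -0.83 (DN2 minus ETP) and -0.04 to 0.07 (CLP minus LMPP). Tek gave -0.11 to 0.11 (ETP minus CLP), -0.2 to 0.03 (ETP minus LMPP), -0.09 to 0.14 (DN2 minus ETP), -0.21 to 0.01 (DN3 minus ETP) and -0.05 to 0.09 (DN2 minus CLP). Genes called in the F test were 2 to 5 of the ligands, 2 to 4 of the other receptor tyrosine kinases and 7 to 15 of the signalling genes. At adjusted p under 0.01 these counts were 2, 2 and 7, and the filter on dim genes gave 2 ligands. Without the DN2 array its comparisons give no value. A lone array left in a population is assumed to vary like the others. The values carry no measure of background, so whether a dim level is above it was not measured. Such levels include Tek outside HSC, Flt3 in DN2 and DN3, and Csf1r outside ETP.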
